A study of Mus musculus with 6 samples.

Results

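The 10 genes described here encode the T-cell surface receptors CD2, CD5, CD6, CD7 and CD28, the surface proteins THY1 and CD48, the SLAM family receptors LY9 and SLAMF6, and SAP, the adaptor of the SLAM family, encoded by Sh2d1a. They were taken by name from a count table of 26332 genes, and all 10 were present. The table holds RNA-seq counts of double negative 3 (DN3) thymocytes from C57BL/6 mice, 2 with a Tcf7 knock-out (KO) and 4 wild type (WT). Tcf7 encodes the transcription factor TCF-1, and the series asks what it does in DN3 cells, a stage of β-chain rearrangement and selection. Each library came from an individual mouse. KO 1 was male and KO 2 female, and among the WT mice WT 4 was male and WT 1, WT 2 and WT 3 were female. The labels give neither the age of the mice nor the part of Tcf7 that was removed. Cells of both genotypes were sorted on surface CD25, and cells with CD44, CD3, TCRβ, CD8, NK1.1 or CD1d-tetramer binding were left out. None of the 10 genes encodes a protein used in the sort.

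CD2 and its mouse ligand CD48 form an adhesion pair that brings T cells and their partners close together. CD5 and CD6 are related receptors of the scavenger receptor cysteine-rich class that restrain signals of the T-cell receptor, whereas CD28 gives a costimulatory signal. LY9 and SLAMF6 bind copies of themselves on neighbouring cells, and SAP connects their tails to the kinase FYN. On thymocytes CD2 and CD5 normally become abundant as cells pass from the double negative to the double positive stage.

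Libraries held 19589938 counts in KO 1, 13673860 in KO 2 and 23711513 to 41666797 in WT. The KO libraries differed from each other more than any pair of WT libraries did, with a chi-square of 104 per degree of freedom over genes against 3.37 to 23.1. Tcf7 itself fell to 1133 and 1022 CPM (counts scaled to library size) in KO 1 and KO 2, against 2094 to 2326 CPM in WT, so transcripts of the gene remained. Lef1, the close relative of Tcf7, stood at 860 and 902 CPM in KO and 211 to 291 CPM in WT. All DN3 markers were detected in every library. Of these 8 genes Il2ra, Ptcra, Notch3 and Hes1 fell in KO, Dtx1 rose, and Rag1, Rag2 and Notch1 did not pass the test.

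The summed markers of B cells and of later thymocytes were higher in KO than in WT, most of all in KO 2. The 13 B-cell markers summed to 814 CPM in KO 1 and 1574 CPM in KO 2, against 258 to 288 CPM in WT. In KO 1 most of this sum was Ighm (522 CPM, against 185 to 220 CPM in WT) and Blk. Cd79a and Cd22 were at 3.68 and 6.29 CPM in KO 1, above WT. Cd79b was at 10.8 CPM in KO 1, below its 42.4 to 50.8 CPM in WT. Among them Cd79a, Cd22, Blk, Fcer2a, Igkc, Ighm and Cd74 rose, Cd79b did not pass, and Ms4a1, Pax5, Ebf1 and Cr2 had too few counts for a test. Ms4a1 and Pax5 were at 36.05 and 7.54 CPM in KO 2 and at 0 in KO 1 and in all WT libraries, whereas Blk was higher in KO 1 (268 CPM) than in KO 2 (75.4 CPM). The 10 double-positive and mature T-cell markers summed to 1355 CPM in KO 1 and 3189 CPM in KO 2, against 687 to 816 CPM in WT. Cd8a alone had 66.9 CPM in KO 1 and 858 CPM in KO 2. CD2, CD5, CD48 and the SLAM receptors are also found on B cells or on later thymocytes, so each of the 10 genes was also examined in each KO library alone. In bulk RNA, more cells of a type and more RNA per cell cannot be told apart. The part that these other cells play in the results was not tested.

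Most of the 10 genes had more RNA in KO than in WT cells. The test gives 8 of 10 as higher in KO and none as lower, at an adjusted p under 0.05 from edgeR's quasi-likelihood test with sex in the model. Over all 13294 genes tested, 30.7% were called, 14.1% as higher and 16.5% as lower. The median log2 fold change was 1.31 for the 10 genes and -0.04 for all tested genes. In 8 of the 10 both KO libraries lay above the range of WT, as did 22.9% of all tested genes, and in 1, Cd48, both lay below it, as did 28.6% of all. Fold changes ran from 169-fold for Cd2 to 1.20-fold for Thy1. The calls of Cd2, Cd5, Cd6, Cd7 and Sh2d1a held in all 16 alternative analyses, and that of Ly9 in 15. Those of Cd28 and Thy1 were lost in 7 each. The 16 include fits without KO 1 or KO 2, which hold no spread between KO mice. The fit without WT 4 holds none either where the sex term is kept. Others change only the scaling or the filter, so the 16 are not independent checks. limma-voom with weights per genotype called 7 of the 10 as higher, against 7.42% of all tested genes, and 1 (Cd48) as lower, against 3.86%. A fit with the replicate number as a block called 5 of the 10, against 5.63% of all. The p-values rest on 3 residual degrees of freedom and measure the spread between KO mice only in part. With 1 KO mouse per sex, a gap between the KO mice that matched the one between the WT sexes went to the sex term. The standard error (SE) of Cd7 was 0.17 with that term and 0.40 without it, and that of Cd28 0.21 and 0.40. Those of Cd48 and Slamf6 were slightly lower without it. The 2 KO mice differed more than the WT mice did.

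**Figure D1:**
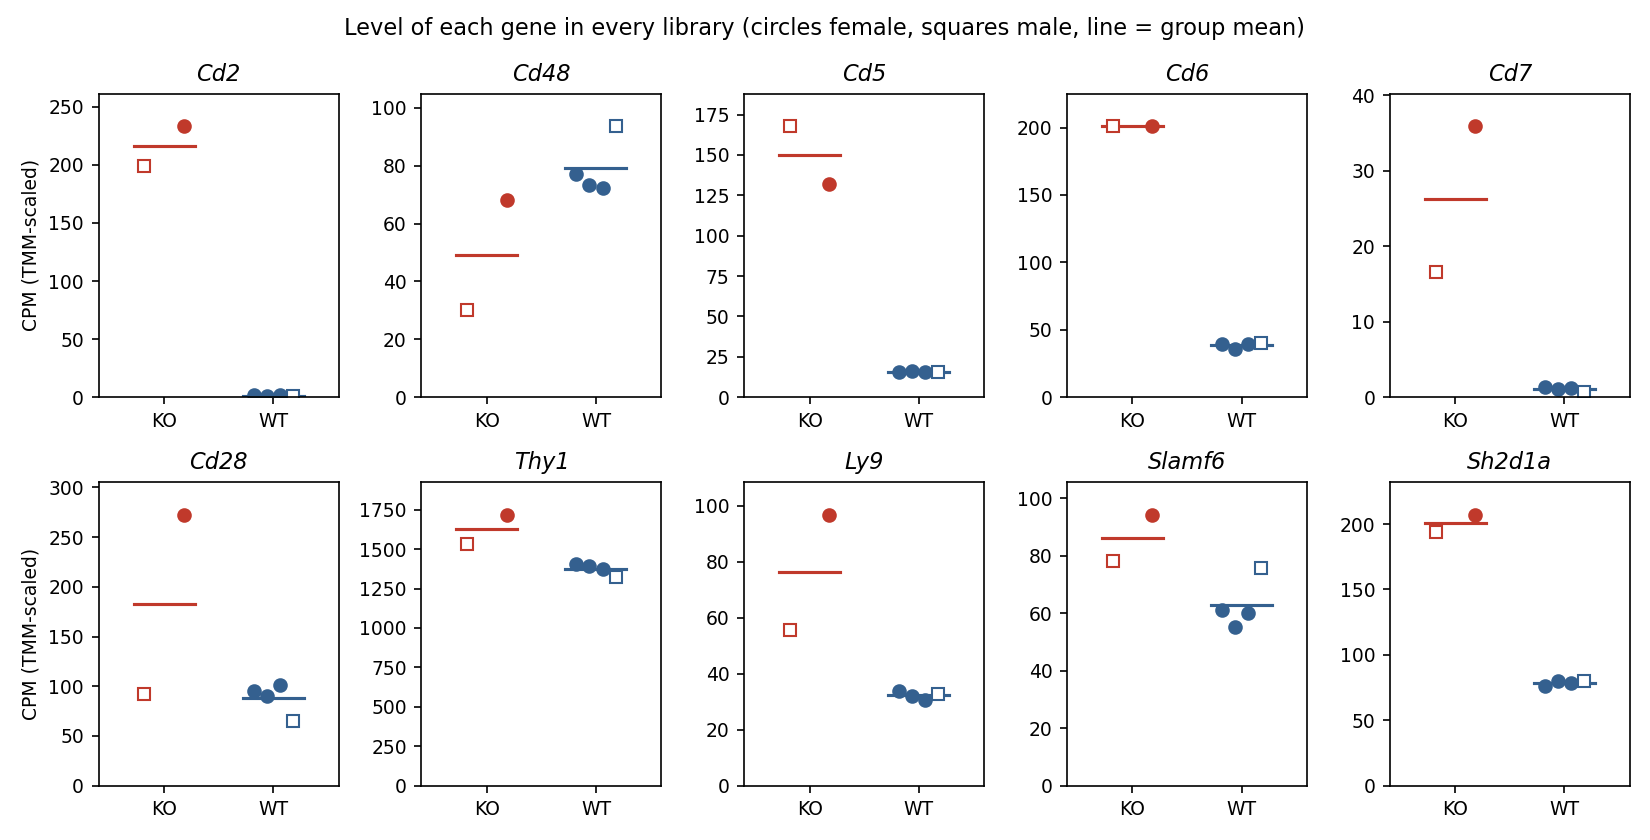
CPM of each gene in every library, with KO left of WT, circles for female and squares for male mice, and a line at the group mean. For Cd2, Cd5, Cd6, Cd7 and Sh2d1a the KO libraries sit far from WT, whereas for Cd28 KO 1 (92.4 CPM) lies among the WT libraries and KO 2 (273 CPM) does not.

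**Figure D2:**
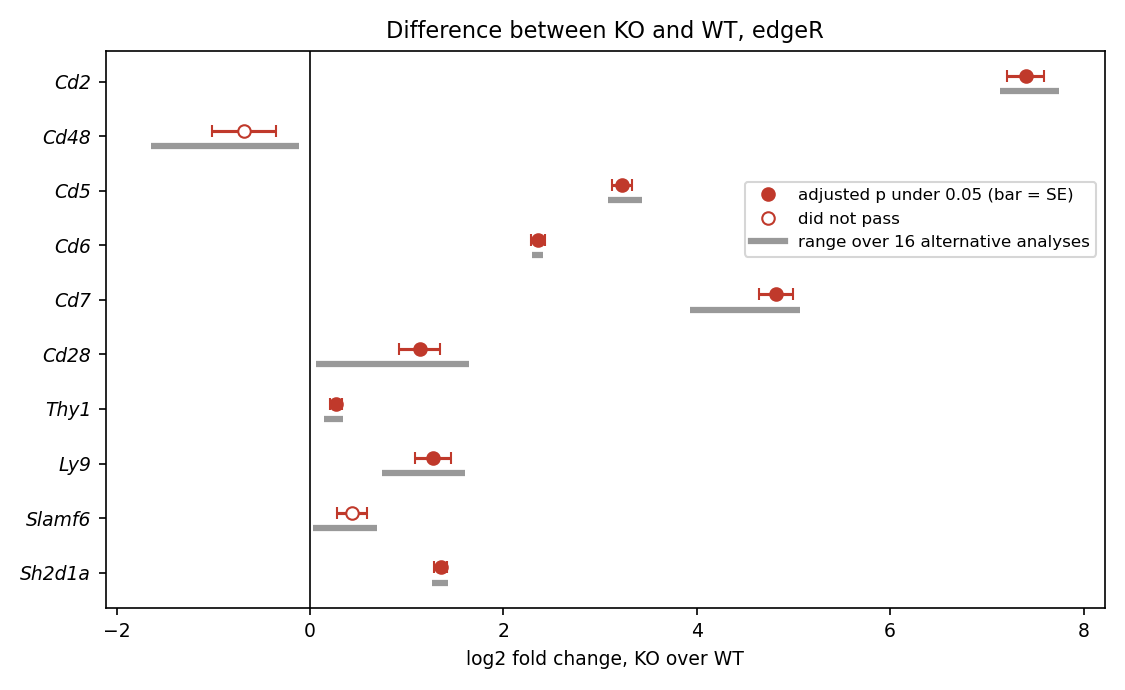
Log2 fold change of each gene, KO over WT, with its standard error (red) and the range of the value over 16 alternative analyses (grey), filled points passing the test. Cd2 stands at 7.40, and the grey ranges of Cd28 and Slamf6 reach down to 0.06 and 0.03.

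Cd2 showed the widest difference of the set. Cd2 (Entrez 12481, chromosome 3, 101275908 to 101287939, assembly GRCm38.p6) had 199 CPM in KO 1 and 233 CPM in KO 2, against 1.81, 1.13, 1.57 and 0.914 CPM in WT 1 to 4. Both KO libraries were far above every WT library. The WT values rest on 75, 27, 41 and 26 counts and the KO values on 3894 and 3128 counts. The log2 fold change was 7.40 (SE 0.19, adjusted p = 7.09e-05). It was 7.24 without KO 1 and 7.75 without KO 2. Within each sex the ratio was 218 for KO 1 over WT 4 and 155 for KO 2 over the mean of WT 1, WT 2 and WT 3. Its neighbour Igsf3, chosen after its values were seen, rose as well, with 37.5 and 63.1 CPM in the KO libraries and 5.25 to 7.03 CPM in WT (log2 3.04, SE 0.24, adjusted p = 0.00121).

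The ligand gene Cd48 did not pass the test. Cd48 (Entrez 12506, chromosome 1, 171681245 to 171705258) encodes a protein held in the membrane by a glycosylphosphatidylinositol (GPI) anchor. It had 30.2 CPM in KO 1 and 68.2 CPM in KO 2, against 77.2, 73.3, 72.5 and 93.7 CPM in WT 1 to 4. Both KO libraries were below the WT range, KO 2 only just. The log2 fold change of -0.69 (SE 0.33) did not pass (adjusted p = 0.172). KO 1 was at 0.323 of WT 4 and KO 2 at 0.918 of the female WT mean, so the gap was much wider in the male pair. Without KO 2 the value was -1.64 (adjusted p = 4.18e-20), and without KO 1 it was -0.11 (adjusted p = 0.139). With a single KO library left, that library is assumed to vary as WT mice do. limma-voom with weights per genotype, which gives the more variable KO libraries less weight, called Cd48 lower (-1.05, adjusted p = 0.0432).

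Both members of the Cd5 and Cd6 pair rose in both KO mice. Cd5 (Entrez 12507, chromosome 19, 10718107 to 10739026) had 168 CPM in KO 1 and 132 CPM in KO 2, against 15.5, 16, 15.4 and 15.5 CPM in WT 1 to 4. The groups were far apart and the WT libraries almost identical, with a coefficient of variation of 1.74%. Cd5 was 9.34-fold higher (log2 3.22, SE 0.10, adjusted p = 0.000113). It was the only gene of the 10 that was lower in KO 2 than in KO 1. The sums of B-cell and double-positive markers were lower in KO 1 than in KO 2, and any part of such cells in the Cd5 values was not tested. Cd6 (Entrez 12511, chromosome 19, 10789339 to 10830062) was at 201 CPM in each of the KO libraries, against 39.7, 35.9, 39.3 and 40.5 CPM in WT 1 to 4. It was 5.13-fold higher (log2 2.36, SE 0.08, adjusted p = 0.000113). Its ratio was 4.96 between the males and 5.25 between the females.

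Cd5 and Cd6 lie side by side on chromosome 19. The stretch that reaches 60 kb beyond them holds 9 counted genes, of which 7 were tested, 4 rose, 1 fell and 2 did not pass. Over all tested genes 14.1% rose and 16.5% fell. The 4 that rose include Cd5 and Cd6 themselves. The long noncoding gene between them, A430093F15Rik, rose to 14.3 and 4.10 CPM in KO 1 and KO 2, against 0.613 to 0.914 CPM in WT (log2 3.18, SE 0.38, adjusted p = 0.00414). Vps37c, on the other side of Cd5, was at 22.5 CPM in both KO libraries, against 26.3 to 29.3 CPM in WT, and did not pass (adjusted p = 0.0869). These neighbours were chosen after their values were seen.

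Cd7, an immunoglobulin superfamily receptor of early T and NK lineage cells, was scarce in WT and rose in KO. Cd7 (Entrez 12516, chromosome 11, 121036747 to 121039478) had 16.6 CPM in KO 1 and 35.9 CPM in KO 2, against 1.38, 1.09, 1.15 and 0.633 CPM in WT 1 to 4. All KO values lay above all WT values, which rest on 57, 26, 30 and 18 counts. It was 28.3-fold higher (log2 4.82, SE 0.17, adjusted p = 0.000147). The KO libraries differed 2.16-fold, but WT 4, the male, was also the lowest WT library. Within the sexes the ratios were thus close, 26.3 in males and 29.8 in females. The genes Sectm1a and Sectm1b, next to Cd7, have a human counterpart that encodes a ligand of CD7, and had no count in any library. At these depths 3 counts correspond to 0.0720 to 0.219 CPM. An antisense gene, Gm11775, spans Cd7, and the library kit does not mark strand, so reads of both cannot be told apart.

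Cd28 was called higher, but the KO libraries were unlike each other and the call was not stable. Cd28 (Entrez 12487, chromosome 1, 60746388 to 60773359) had 92.4 CPM in KO 1 and 273 CPM in KO 2, against 95.6, 90.1, 102 and 64.7 CPM in WT 1 to 4. KO 1 lay inside the WT range and KO 2 far above it, so the groups overlapped. The log2 fold change was 1.13 (SE 0.21, adjusted p = 0.0160). KO 1 was 1.43-fold above WT 4, the only other male and the lowest WT library, and KO 2 was 2.85-fold above the female WT mean. With sex left out of the model the adjusted p was 0.0916. Without KO 2 the value was 0.50 (adjusted p = 2.25e-07), where KO 1 is set against WT 4 alone, and 0.06 with no sex term either (adjusted p = 0.848). Leaving out WT 1, WT 2 or WT 3 also ended the call (adjusted p = 0.0660, 0.0604 and 0.0621). KO 2 had the highest sums of B-cell markers and of double-positive and mature T-cell markers. Whether such cells play a part in the Cd28 values was not tested.

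The genes next to Cd28 moved differently. Ctla4, an inhibitory relative of CD28, fell to 22.0 and 48.6 CPM in KO 1 and KO 2, against 67.7 to 75.0 CPM in WT (log2 -1.005, SE 0.28, adjusted p = 0.0460). Icos, a costimulatory relative, rose to 5.27 and 22.5 CPM in KO 1 and KO 2, against 1.67 to 2.85 CPM in WT (log2 2.56, SE 0.54, adjusted p = 0.0216). Both calls ended when WT 1, WT 2 or WT 3 was left out, with adjusted p of 0.0973 to 0.116 for Ctla4 and 0.0754 to 0.0813 for Icos. All 3 genes of the cluster were higher in KO 2 than in KO 1.

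Thy1, the GPI-anchored protein that marks mouse T cells, was the most abundant of the 10 and had the smallest fold change of those called. Thy1 (Entrez 21838, chromosome 9, 44043384 to 44048579) had 1532 CPM in KO 1 and 1719 CPM in KO 2, against 1405, 1395, 1377 and 1326 CPM in WT 1 to 4. Both KO libraries were above all WT libraries. The difference was 1.20-fold (log2 0.27, SE 0.06, adjusted p = 0.0248). It did not pass without WT 1, WT 2 or WT 3 (adjusted p = 0.1004, 0.110 and 0.112), without the sex term (0.0507) or with weights per genotype (0.231). Of 6 other tested genes of GPI-anchored lymphocyte proteins, Cd24a fell to 379 and 490.5 CPM in KO 1 and KO 2, against 707 to 763 CPM in WT (log2 -0.72, SE 0.10, adjusted p = 0.00741). Ly6a, Ly6c1, Ly6d, Ly6e and Cd52 did not pass, and Ly6c2 had too few counts for a test. Ly6d had the largest change of the list, with both KO libraries below WT. It had 69.3 and 348 CPM in KO 1 and KO 2, against 553 to 684 CPM in WT (log2 -1.58, SE 0.59, adjusted p = 0.0989). Cd52 had 2.35 CPM in KO 1 and 64.9 CPM in KO 2, against 12.2 to 12.8 CPM in WT, so that the KO libraries lay on either side of WT.

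Of the SLAM receptors Ly9 was called higher and Slamf6 was not. Ly9 (SLAMF3, Entrez 17085, chromosome 1, 171588613 to 171607410) had 55.6 CPM in KO 1 and 96.8 CPM in KO 2, against 33.9, 31.9, 30.7 and 32.8 CPM in WT 1 to 4. Both KO libraries were above the WT range, and KO 2 was 1.74-fold above KO 1. Ly9 was 2.41-fold higher (log2 1.27, SE 0.18, adjusted p = 0.00741). The value was 0.75 without KO 2, where KO 1 is set against WT 4 alone. Without KO 1 it was 1.6, with KO 2 set against the WT females. Neither fit holds a spread between KO mice. The ratio was 1.69 in males and 3.01 in females. Ly9 overlaps Cd244a, which lies on the other strand and had at most 0.676 CPM in any library.

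Slamf6 (Entrez 30925, chromosome 1, 171917458 to 171948958) had 77.99 CPM in KO 1 and 94.3 CPM in KO 2, against 60.9, 55.2, 59.9 and 75.7 CPM in WT 1 to 4. Both KO libraries were above WT, but KO 1 exceeded WT 4 by little. The log2 fold change of 0.43 (SE 0.15) did not pass (adjusted p = 0.0867). KO 1 was at 1.03 times WT 4 and KO 2 at 1.61 times the female WT mean. Slamf6 was called higher when KO 1 was left out (0.70, adjusted p = 6.57e-11) or WT 4 (0.68, adjusted p = 5.67e-11), where the model with the sex term compares KO 2 with the WT females alone. It was also called higher with no sex term, both without KO 1 (0.60, adjusted p = 0.0134) and without WT 4 (0.55, adjusted p = 0.0315), the second with both KO libraries in the comparison. An antisense gene, Gm37065, overlaps the start of Slamf6, and A630035G10Rik, on the other strand, that of Cd48, so reads there cannot be told apart.

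Sh2d1a rose together in both KO mice. Sh2d1a (Entrez 20400, X chromosome, 42502565 to 42522097) had 194 CPM in KO 1 and 207 CPM in KO 2, against 76.3, 79.8, 78.9 and 80.2 CPM in WT 1 to 4. The WT libraries differed by 2.24% (coefficient of variation), and no KO library came near them. It was 2.55-fold higher (log2 1.35, SE 0.07, adjusted p = 0.000319). Although the gene is on the X chromosome, WT 4 was not apart from the WT females, and the ratio was 2.42 in males and 2.65 in females. Of the 3 other counted genes within 300 kb, Stag2, Tex13d and Tenm1, none passed (adjusted p = 0.522, 0.177 and 0.240).

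**Figure D3:**
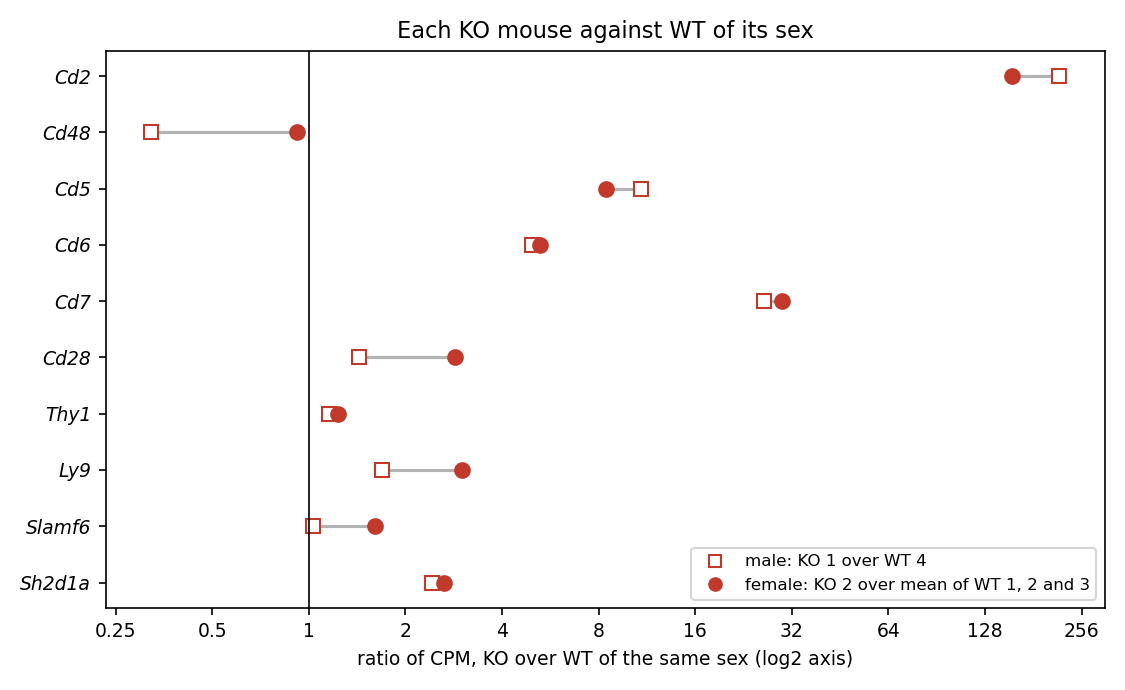
Ratio of CPM of each KO mouse to WT of its sex, on a log2 axis, with squares for KO 1 over WT 4 (male) and circles for KO 2 over the mean of WT 1, WT 2 and WT 3 (female). The pairs nearly coincide for Cd6, Cd7, Thy1 and Sh2d1a and lie apart for Cd48 (0.323 and 0.918), Cd28 (1.43 and 2.85) and Ly9 (1.69 and 3.01), with 1 KO mouse for each sex.

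The agreement between the KO mice divided the set. KO 2 was higher than KO 1 for 9 of the 10 genes, against 50.1% of all tested genes. The ratio of KO 2 to KO 1 was 1.00 for Cd6, 1.07 for Sh2d1a, 1.122 for Thy1, 1.17 for Cd2, 1.21 for Slamf6 and 0.788 for Cd5. It was 1.74 for Ly9, 2.16 for Cd7, 2.26 for Cd48 and 2.95 for Cd28. On the log2 scale the median size of this difference was 0.31 for the 10 genes and 0.37 for the 9200 tested genes with a mean of at least 10 CPM. Sex and the individual mouse cannot be told apart here.

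Most other SLAM genes lie with Ly9, Cd48 and Slamf6 in a cluster on chromosome 1, where 7 counted genes span 390 kb and 6 were tested. Only Ly9 was called. Slamf1, whose product is the founding receptor of the family, had 5.94 CPM in KO 1 and 21.9 CPM in KO 2, against 5.83 to 6.56 CPM in WT (adjusted p = 0.0828). Cd84 had 34.9 CPM in KO 1 and 64.6 CPM in KO 2, against 57.6 to 64.3 CPM in WT (adjusted p = 0.412). Cd244a, which encodes another receptor for CD48, had 0 CPM in KO 1 and 0.373 CPM in KO 2, against 0.307 to 0.676 CPM in WT (adjusted p = 0.346). Slamf7 was at 3.43 CPM in KO 2 and at most 0.141 CPM in the other libraries, and had too few counts for a test. Outside the 390 kb, Slamf9 had at most 0.351 CPM in any library and Slamf8 had no count.

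**Figure D4:**
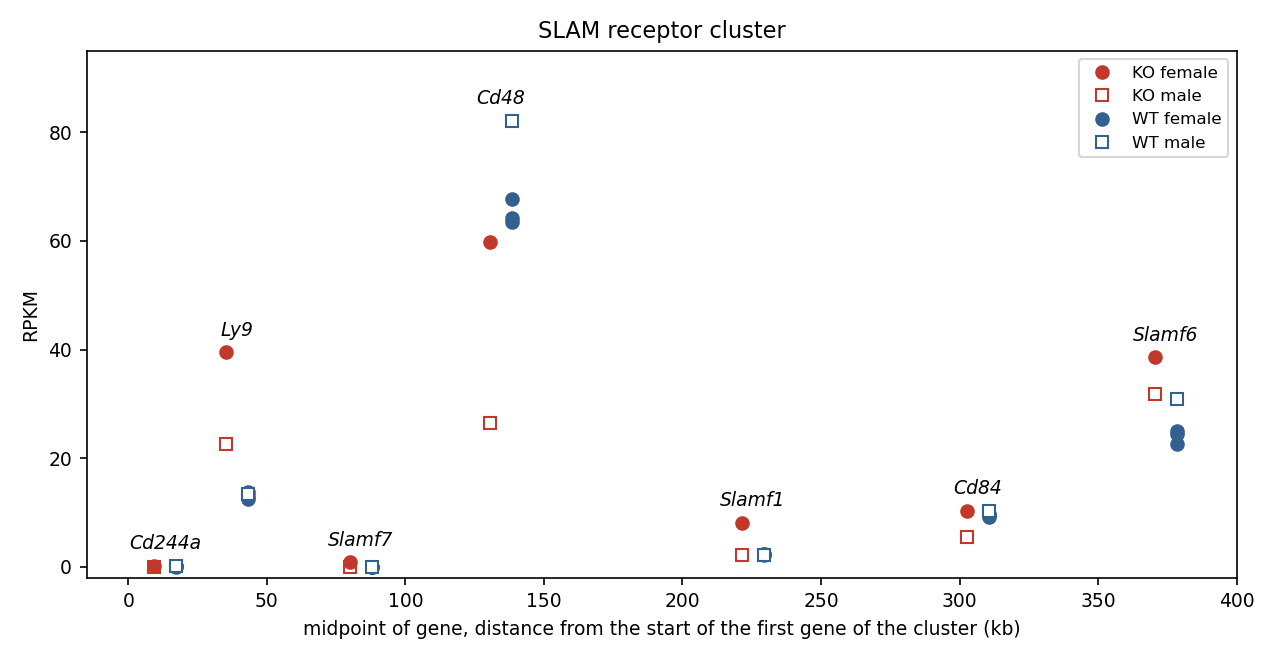
RPKM (CPM per kb of gene length) of the 7 genes of the SLAM cluster against the distance of each gene's midpoint from the start of the first gene, with KO in red drawn slightly left of WT in blue, circles female and squares male. Cd48 has its lowest value in KO 1 (26.5 RPKM). Ly9 (39.5 RPKM), Slamf1, Slamf6 and Slamf7 have their highest values in KO 2, as does Cd84 by little (10.32 RPKM, against 10.28 RPKM in WT 4).

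Divided by gene length, the order of the genes differed between the genotypes. In KO, mean RPKM was 937 for Thy1, 245 for Sh2d1a, 189 for Cd2, 72.5 for Cd5, 66.3 for Cd6, 43.1 for Cd48, 42.3 for Cd28, 35.3 for Slamf6, 31.1 for Ly9 and 25.2 for Cd7. Cd5 and Cd6 overlapped between KO libraries, as did each pair of neighbours from Cd48 down to Cd7. In WT, it was 793 for Thy1, 96.2 for Sh2d1a, 69.3 for Cd48, 25.8 for Slamf6, 20.4 for Cd28, 13.2 for Ly9, 12.8 for Cd6, 7.54 for Cd5, 1.19 for Cd2 and 1.02 for Cd7. In WT the libraries of Slamf6 and Cd28, of Ly9 and Cd6, and of Cd2 and Cd7 overlapped. Cd2 thus took the third place in KO and the ninth in WT. Its mean RPKM exceeded that of 97.4% of tested genes in KO and of 18.1% in WT. Thy1 was above 99.7% of tested genes in KO and 99.6% in WT.

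The promoter table of RefSeq (GRCm38.p6) matched Cd5, Cd48 and Slamf6, of which Cd5 rose and the others did not pass. The 250 bases before each start site of that table are shown because the test gave these genes different outcomes, read 5′ to 3′ along the gene, with capitals on matches to the TCF/LEF core and to the E-box, the site type bound by E proteins. The windows are chr19:10738975-10739224 (minus strand) for Cd5, chr1:171681742-171681991 (plus strand) for Cd48 and chr1:171917212-171917461 (plus strand) for Slamf6. The start sites of the promoter table lie inside the gene spans given above, so they are not the outermost starts. The Cd48 window lies wholly within its gene's span, and the Cd5 window shares 28 bases with an exon of a Cd5 transcript in GENCODE.
Cd5: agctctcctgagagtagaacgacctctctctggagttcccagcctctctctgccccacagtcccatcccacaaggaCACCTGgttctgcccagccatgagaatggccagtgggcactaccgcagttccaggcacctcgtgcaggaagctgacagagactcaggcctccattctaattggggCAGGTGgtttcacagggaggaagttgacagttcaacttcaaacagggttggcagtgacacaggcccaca
Cd48: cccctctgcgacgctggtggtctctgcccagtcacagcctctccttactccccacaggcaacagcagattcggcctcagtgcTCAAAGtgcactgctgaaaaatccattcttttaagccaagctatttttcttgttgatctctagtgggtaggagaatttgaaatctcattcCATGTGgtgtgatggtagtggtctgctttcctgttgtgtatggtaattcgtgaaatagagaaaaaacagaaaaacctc
Slamf6: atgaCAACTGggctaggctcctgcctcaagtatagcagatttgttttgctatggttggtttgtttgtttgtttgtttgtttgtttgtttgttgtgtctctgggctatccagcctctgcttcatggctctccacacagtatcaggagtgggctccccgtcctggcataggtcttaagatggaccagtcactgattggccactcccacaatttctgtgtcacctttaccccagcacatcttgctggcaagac
Both strands were searched for CTTTGA and CTTTGT as TCF/LEF cores and for CANNTG as E-box. CTTTGA was found in the Cd48 window alone, on the strand opposite to the printed one, its first printed base at -168 from the start site, and 13.8% of 32851 promoters of that length hold it. CTTTGT was in none of the 3 and is in 16.5% of all. E-boxes were present in all 3, with their first base at -174 and -69 in Cd5, -78 in Cd48 and -246 in Slamf6, counted from the start site, and in 66.2% of all promoters. The Cd48 window also overlaps exons of the noncoding gene A630035G10Rik over 239 bases.

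Among 22 adaptors and signal partners of these receptors, 20 were tested, 8 rose, 3 fell and 9 did not pass. Their median log2 fold change was 0.13. Fyn, the kinase that SAP recruits, rose to 261 and 207 CPM in KO 1 and KO 2, against 85.1 to 97.5 CPM in WT (log2 1.31, SE 0.07, adjusted p = 0.000442). Prkcq, a kinase below CD28, rose to 259 and 350.5 CPM in KO 1 and KO 2, against 104 to 123 CPM in WT (log2 1.48, SE 0.14, adjusted p = 0.00223). Cblb, a ubiquitin ligase that makes T-cell activation depend on CD28, fell to 128.03 and 97.6 CPM in KO 1 and KO 2, against 229 to 266 CPM in WT (log2 -1.19, SE 0.08, adjusted p = 0.00076). These 3 calls held in all 16 alternatives. Those of the other 8 did not, and among these Cd2bp2, Pstpip1, Lck and Pik3cd lost theirs when at least 1 WT library was left out. These genes are named after their values were seen.

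Inpp5d, a phosphatase that SLAM receptors can recruit, rose 2.03-fold (adjusted p = 0.00281). It had 106 CPM in KO 1 and 162 CPM in KO 2, against 62.5 to 71.5 CPM in WT. Sh2d1b1 had at most 0.0418 CPM in any library and Sh2d1b2 had no count, so that Sh2d1a was the only gene of the SAP family with an appreciable level. Among 7 ligands, Alcam, the ligand of CD6, had 1.94 CPM in KO 1 and 19.8 CPM in KO 2, against 16.8 to 20.3 CPM in WT. Cd72 and Icosl did not pass either, and Cd80, Cd86, Sectm1a and Sectm1b had too few counts for a test.

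Other cell types were checked with lists of marker genes. Of 7 T-lineage genes, Zap70 and Gata3 rose, Cd3g fell, and Cd3e, Cd3d, Lat and Bcl11b did not pass. Of 10 double-positive and mature markers 8 rose, led by S1pr1, Cd8a, Trac, Klf2 and Cd8b1. Of 6 γδ T-cell genes, Sox13 and Cd163l1 rose, Trgc1 fell, Trdc and Trgc2 did not pass, and Trdv4 was not tested. The 8 NK and innate lymphoid markers summed to 52.1 and 51.3 CPM in KO 1 and KO 2, against 55.1 to 71.7 CPM in WT, and none of the 3 tested (Tyrobp, Fcer1g and Nkg7) passed. The 8 myeloid and dendritic markers summed to 8.55 and 9.48 CPM in KO 1 and KO 2, against 19.8 to 23.4 CPM in WT, with Lyz2 lower, Itgam higher and Cd14 and Siglech at 0 in all libraries. The 6 early progenitor genes summed to 26.1 and 39.5 CPM in KO 1 and KO 2, against 67.8 to 77.2 CPM in WT. Lyl1 rose, Kit, Cd44, Mef2c and Spi1 did not pass, and Flt3 was not tested. Of 8 stromal and erythroid markers, only Epcam was called (lower), and Krt5 and Pdgfra were at 0 in all libraries.

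Genes outside the set with the most similar pattern over the 6 libraries were ranked by Pearson's r of log2 CPM. For Cd2 they were Alms1, Stk10 and Ikzf3 (r of 0.9993, 0.9991 and 0.9989). For Cd28 they were Il21r, Hspb11 and Ppp1r1b (r of 0.9982, 0.9971 and 0.9961). For Slamf6 they were Zc3hav1, Zfp622 and Basp1 (r of 0.9894, 0.9855 and 0.9815). With 6 libraries in 2 groups, such values mainly describe the difference between genotypes and between the KO mice. They leave out the size of the difference, which on the log2 scale was 0.96 for Alms1 and 7.40 for Cd2.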

How the data were processed

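RNA of sorted DN3 thymocytes was amplified with a SMART-Seq v4 kit and read as paired ends, per the labels' protocols. The authors deposited unnormalized counts for each Entrez gene; mm10 and featureCounts come from the submitters' processing notes. For the aligner, its version and strand use, nothing is given in the sources used here. Gene lengths are as deposited, in bases. Symbols and coordinates came from RefSeq's table of GRCm38.p6 (25275 of 26332 identifiers). Genes passing filterByExpr (count minimum 10) were tested with edgeR 4.0.16 in R 4.3.3, with TMM scaling, robust quasi-likelihood F-tests, sex as a covariate, 3 residual degrees of freedom and Benjamini-Hochberg adjustment over 13294 genes. SE is the log2 fold change over the square root of F. CPM and RPKM use TMM-scaled totals, and log2 CPM for likeness has a prior count of 2. Alternatives were RLE or no scaling, DESeq2 1.42.0, limma-voom (limma 3.58.1), no filter, no sex term, a replicate block, and leaving out each library. KO 1, KO 2 and WT 4 were also left out in fits with no sex term. The fits were run on simulated data with the same spread in KO and WT. That setting does not cover KO libraries that differ more than WT libraries do. The members, 14 further gene lists and tests were chosen with earlier results of these data known. Named genes are the members, the 5 largest changes per list, whole lists of up to 7 genes, and the DN3 and B-cell markers; some of these genes are not reported here.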

Additional observations from a re-analysis of the deposited data

Results flagged for a closer look

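Each of 98 named or listed genes, the 10 members among them, was screened for a WT library standing apart from the other 3, by the gap to its nearest neighbour over the range of the group against Dixon's critical value for 4 samples. Chance gives about 1 in 20 groups. None of the 10 members was found, and 9 other genes were. In WT 4, the male, Pik3cd (652 CPM), Ly6d (684 CPM) and Prkcq (123 CPM) were higher than in the other WT libraries. Cd79a (0.211 CPM) and Cd22 (0.0351 CPM, 1 count) were higher there as well. Inpp5d (62.5 CPM) and Bcl11b (944 CPM) were lower in WT 4. Alcam was higher in WT 2 (20.3 CPM) and Mef2c in WT 3 (5.83 CPM).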

How the results depend on the processing

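Over the 10 genes and 16 alternatives, 138 of 160 values kept their direction and their side of the threshold, 15 lost the call, 7 gained one and 0 changed direction. The count of genes called over the whole table moved more, from 4076 to 1500 with weights per genotype (7 of the 10 genes higher and 1, Cd48, lower), with 1404 called by both, and to 748 with the replicate block in place of the sex term (5 of the 10, all higher). Leaving out 1 library gave 1665 to 9473 genes and 6 to 9 of the 10, with 0 or 1 lower. Without the sex term as well, the count was 7178 without KO 1 and 8918 without KO 2, where Cd48 was the 1 gene lower. The cause of these shifts was not tested. Among other genes, log2 fold changes of Slamf1 ran over the single leave-outs between -0.047 (without KO 2; -0.077 with no sex term either) and 1.83 (without KO 1). Those of Cd84 ran between -0.89 (without KO 2) and 0.14 (without KO 1; 0.11 with no sex term either), with 0.12 without WT 4. Leaving out WT 4 or KO 1 with the sex term kept leaves KO 2 against WT females alone. KO and WT libraries share the replicate numbers 1 and 2, but nothing in the labels pairs these mice. Deviations from the group means correlated at -0.11 and 0.03 between libraries of the same number. With 2 KO libraries the deviations mirror each other, so these values cannot decide whether the numbers pair the mice. The block leaves 1 residual degree of freedom. Under it Cd2, Cd5, Cd6, Cd7 and Sh2d1a were still called. Each KO library had at least 325 counts for each of the 10 genes, so depth limits only the genes with few WT counts, Cd2 and Cd7.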
